A study of Homo sapiens with 4 samples.

Results

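Enteric ganglioids are cultures in which neurons of the gut's own nervous system grow with their precursors as free clusters. They were made here from H9, a widely used human embryonic stem cell line. This account follows 10 noncoding genes of the 36601 features counted in single nuclei of these cultures. They are AL137139.2, AC092957.1, AC092958.4, AC087564.1, AC137494.1, AL008633.1, STXBP5-AS1, LINC00326, AC004949.1 and LINC01280. They were chosen because their levels differed between cultures treated with PP121 and control cultures, so their values in that contrast are given as a description, without a test. What the choice did not use was tested, namely their levels in the classes of nuclei, in nitrergic (NO) neurons, in phases of the cell cycle and on the 2 days of sampling.

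Single-nucleus RNA sequencing was performed on 4 samples of H9 ganglioids kept in suspension, 2 control and 2 given PP121, an inhibitor of several kinases, at 2 µM from day 15 to day 20. Each sample was a pool of ganglioids, and the labels number the differentiation 1 or 2 within each group without saying whether the control and PP121 samples of 1 number share a differentiation. The deposited annotation dates replicate 1 of both groups to day 42 and replicate 2 to day 38, whereas the study's text names a single day for all of them. Every comparison of days here is therefore one between the annotated days, which cannot be told apart from the replicate number. A class is annotated for 14812 of the 25306 deposited nuclei, of which 6557 are enteric neurons, 2892 progenitor 1, 3800 progenitor 2, 903 mesenchymal, 92 epithelial and 568 unknown. The annotated nuclei held 23348045 to 34123759 unique molecular identifiers (UMIs) per sample, with a median of 6289 to 7071 UMIs per nucleus. All samples come from 1 stem cell line, and p-values measure the spread between these samples. The neuronal markers summed to 2187 to 2839 counts per 1000000 UMIs (CPM) in the nuclei called enteric neurons, against 635 to 959.9 CPM in the progenitor classes. The list of progenitor and glial markers was low in all of them, at 59.4 to 103 CPM in the progenitors, with up to 2 of its 8 genes at 0 in a sample, and 38.9 to 46.4 CPM in the neurons.

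Long noncoding RNAs are transcribed and spliced much as messenger RNAs are but have no known protein product. Many stay in the nucleus, often close to the gene they were copied from. Some act on the transcription of neighbouring genes, whereas for most no function is known. Names made of a clone, such as AC092957.1, mark annotated genes without an approved symbol, LINC marks an intergenic transcript, and AS marks one read from the strand opposite to a coding gene. Transcription factors of the ZIC family act in the neural plate and its border, from which the neural crest and, through it, the enteric nervous system arise.

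Of the 10 genes, 7 were found by symbol in the GENCODE v29 annotation of GRCh38. AC092957.1 lies at chr3:146909685-147370656 on the minus strand, 15.4 kb beyond the end of ZIC4, and has 6 exons. AC092958.4 lies at chr3:148028046-148079637, also on the minus strand, with ZIC1 as its nearest coding gene at 518 kb. AL137139.2 was not found in that annotation. The features of the deposited tables follow the order of the genome, since 99.0% of neighbouring located features on 1 chromosome had rising starts, and AL137139.2 stands between CLYBL and ZIC5. So 3 of the genes stand beside members of the ZIC family in the order of genes, and they are called the genes beside ZIC below. The name states no close distance, since AC092958.4 lies 518 kb from ZIC1 and the distance of AL137139.2 is not known.

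AC087564.1 lies at chr16:51150770-51442519 on the plus strand and overlaps the start of SALL1, a zinc finger transcription factor read from the other strand, by 598 bases. AC137494.1 was not found in the annotation and stands in the tables beside AC087564.1 and SALL1. STXBP5-AS1 lies at chr6:146841901-147204614 on the minus strand and overlaps the start of STXBP5, whose product tomosyn binds SNARE proteins of synaptic vesicle release, by 190 bases. The remaining located genes overlap no coding gene. LINC00326 lies at chr6:133088080-133106578, 134 kb from EYA4, a transcriptional coactivator. LINC01280 lies at chr2:216590426-216606938, between RPL37A at 11.2 kb, which encodes a ribosomal protein, and IGFBP2 at 25.9 kb, which encodes a binding protein of insulin-like growth factors. AC004949.1 lies at chr7:10449820-10779944, 152 kb from NDUFA4, which encodes a mitochondrial protein of the respiratory chain. AL008633.1 was not found in the annotation and stands between PRR32 and ACTRT1, for which no UMI was counted in neurons or progenitors.

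**Figure D1:**
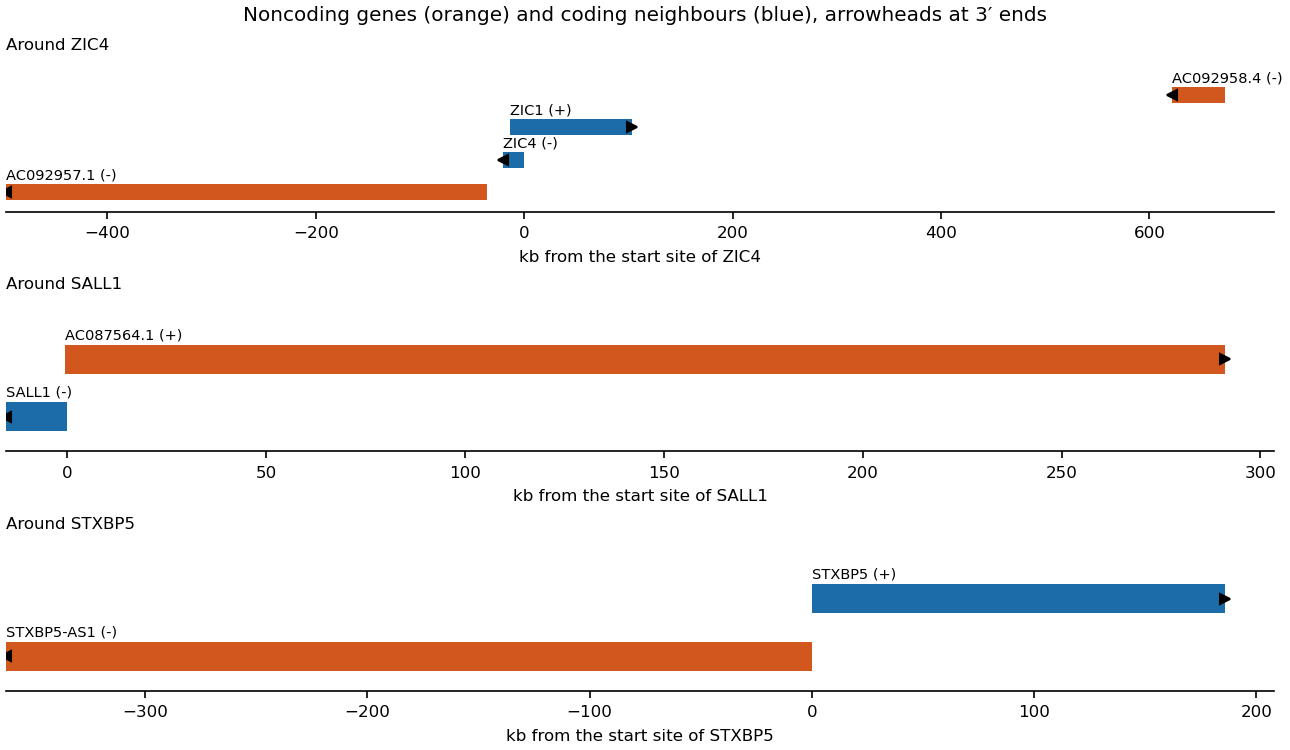
Position of 4 located noncoding genes (orange) and their coding neighbours (blue), in kb from the start site of ZIC4, SALL1 or STXBP5, with the strand beside each name and an arrowhead at the 3′ end. AC087564.1 and STXBP5-AS1 each begin inside the start of a coding gene on the other strand, whereas AC092957.1 and AC092958.4 lie on either side of ZIC4 and ZIC1 without overlap.

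The libraries were made with a kit that reads the 3′ ends of transcripts. The last 100 bases of the longest GENCODE v29 transcript are shown for AC092958.4 and AC087564.1, on which the results turn. Reads of spliced transcripts in such a library fall there when the annotated end is the one used. Capitals mark AATAAA, the polyadenylation signal, searched on the transcript strand only.

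AC092958.4: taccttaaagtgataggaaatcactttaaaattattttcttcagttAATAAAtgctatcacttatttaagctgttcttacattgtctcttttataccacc
AC087564.1: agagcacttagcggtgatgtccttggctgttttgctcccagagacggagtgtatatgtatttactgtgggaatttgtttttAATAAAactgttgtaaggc

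Each of these ends held 1 AATAAA, as did that of LINC00326. The ends of AC092957.1, STXBP5-AS1, LINC01280 and AC004949.1 held 0. None of the 70 words of 31 bases in each end shown occurred in transcripts of other genes on either strand. At the ends of STXBP5-AS1, AC092957.1 and AC004949.1, 88.6, 30 and 2.86% of such words do occur in other genes. Over the whole transcript the shares were 12.5, 6.30 and 47.0%, and 0.914% for AC087564.1. Reads there cannot be assigned by sequence alone, so the counts of these genes are uncertain, most at the end of STXBP5-AS1. The effect on the counts was not estimated. AC087564.1 and STXBP5-AS1 are also uncertain where they overlap a coding gene, since whether strand was used in counting is not given in the sources used here. Whether reads in introns were counted is not given either. The words cover spliced transcripts only, so they do not show how such reads would be assigned.

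RefSeq promoters (GRCh38.p14, 250 bases before to 50 after the start) were given for 2 of the 10 genes, STXBP5-AS1 and LINC01280. That of STXBP5-AS1, chr6:147204565-147204864 on the minus strand, is shown because this gene starts inside STXBP5, which is read from the other strand. The stretch shown spans the start of STXBP5-AS1, 0.189 kb inside STXBP5, and not the start of STXBP5 itself. Capitals mark CCAAT on either strand, of which it held 2, and 34.6% of all promoters of this length held at least 1.

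STXBP5-AS1: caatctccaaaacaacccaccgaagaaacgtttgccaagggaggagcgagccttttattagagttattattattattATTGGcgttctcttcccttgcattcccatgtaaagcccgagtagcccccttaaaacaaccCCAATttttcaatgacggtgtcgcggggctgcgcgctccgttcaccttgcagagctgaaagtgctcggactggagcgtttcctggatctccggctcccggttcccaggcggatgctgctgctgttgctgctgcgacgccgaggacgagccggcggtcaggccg

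Among the comparisons tested, the 10 genes differed most between the 2 progenitor classes. The genes beside ZIC and SALL1, and AL008633.1, were higher in progenitor 2, whereas LINC00326, AC004949.1, LINC01280 and STXBP5-AS1 were higher in progenitor 1. Within each sample, counts were added up by class and compared by edgeR's quasi-likelihood test with the sample as a block, with Benjamini-Hochberg adjustment over all genes tested. All 10 genes passed at 0.05, 6 higher and 4 lower, where 55.3% of the 19080 genes tested passed (29.1% higher and 26.2% lower). The median absolute log2 fold change of the 10 genes was 2.89, against 0.55 over all genes tested. The authors clustered the classes on the counts of these same nuclei. Whether the noncoding genes entered that clustering is not given in the sources used here, and the p-values do not allow for it.

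AC092958.4, on the far side of ZIC1, differed most. Its level in progenitor 1 was 3.54 and 12.0 CPM in control replicates 1 and 2, and 16.5 and 7.22 CPM in PP121 replicates 1 and 2. In progenitor 2 it was 47.2, 221, 435 and 146 CPM in the same order, so that the lowest progenitor 2 sample lay above the highest progenitor 1 sample. The log2 fold change was 4.34 ± 0.16 (SE, 4 samples, adjusted p = 2.99e-09). AC092957.1, beside ZIC4, stood at 16.7, 63.2, 68.9 and 61.7 CPM in progenitor 1 and at 184, 327, 919 and 398 CPM in progenitor 2 (log2 fold change 3.02 ± 0.21). AL137139.2, beside ZIC5, stood at 9.60, 7.78, 18.8 and 24.3 CPM in progenitor 1 and at 48.2, 64.0, 183 and 204 CPM in progenitor 2 (log2 fold change 2.96 ± 0.16). For all 3 genes beside ZIC the classes did not overlap.

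The genes beside SALL1 moved the same way. AC087564.1 had 33.6, 23.3, 17.4 and 20.0 CPM in progenitor 1 and 217, 237, 109 and 73.7 CPM in progenitor 2. The classes did not overlap, and the PP121 samples were the lower pair in progenitor 2 (log2 fold change 2.64 ± 0.17). AC137494.1 had 3.99 to 9.85 CPM in progenitor 1 and 28.3 to 104 CPM in progenitor 2 (log2 fold change 3.19 ± 0.23). AL008633.1 had 3.03 to 10.2 CPM in progenitor 1, from 12 to 54 UMIs a sample, and 14.4 to 102 CPM in progenitor 2 (log2 fold change 2.75 ± 0.21).

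AC004949.1 and LINC00326 showed the opposite order. AC004949.1 had 50.3, 36.9, 55.7 and 14.4 CPM in progenitor 1 and 5.26, 5.37, 8.45 and 2.01 CPM in progenitor 2 (log2 fold change -2.93 ± 0.16, adjusted p = 1.42e-08). LINC00326 had 27.0, 18.1, 48.4 and 10.2 CPM in progenitor 1 and 4.47, 1.85, 5.68 and 2.16 CPM in progenitor 2 (log2 fold change -2.84 ± 0.20). For both, every progenitor 1 sample lay above every progenitor 2 sample, and PP121 replicate 2 was the lowest of the 4 in progenitor 1. LINC01280 was also lower in progenitor 2 (log2 fold change -1.12 ± 0.17). STXBP5-AS1 passed narrowly (-0.53 ± 0.21, adjusted p = 0.0466) and lost the call without control replicate 2 (adjusted p = 0.0759), without PP121 replicate 1 (0.407), without PP121 replicate 2 (0.0846), with at least 10 counts required in every sum (0.0861) and with the replicate number as the block (0.0511).

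**Figure D2:**
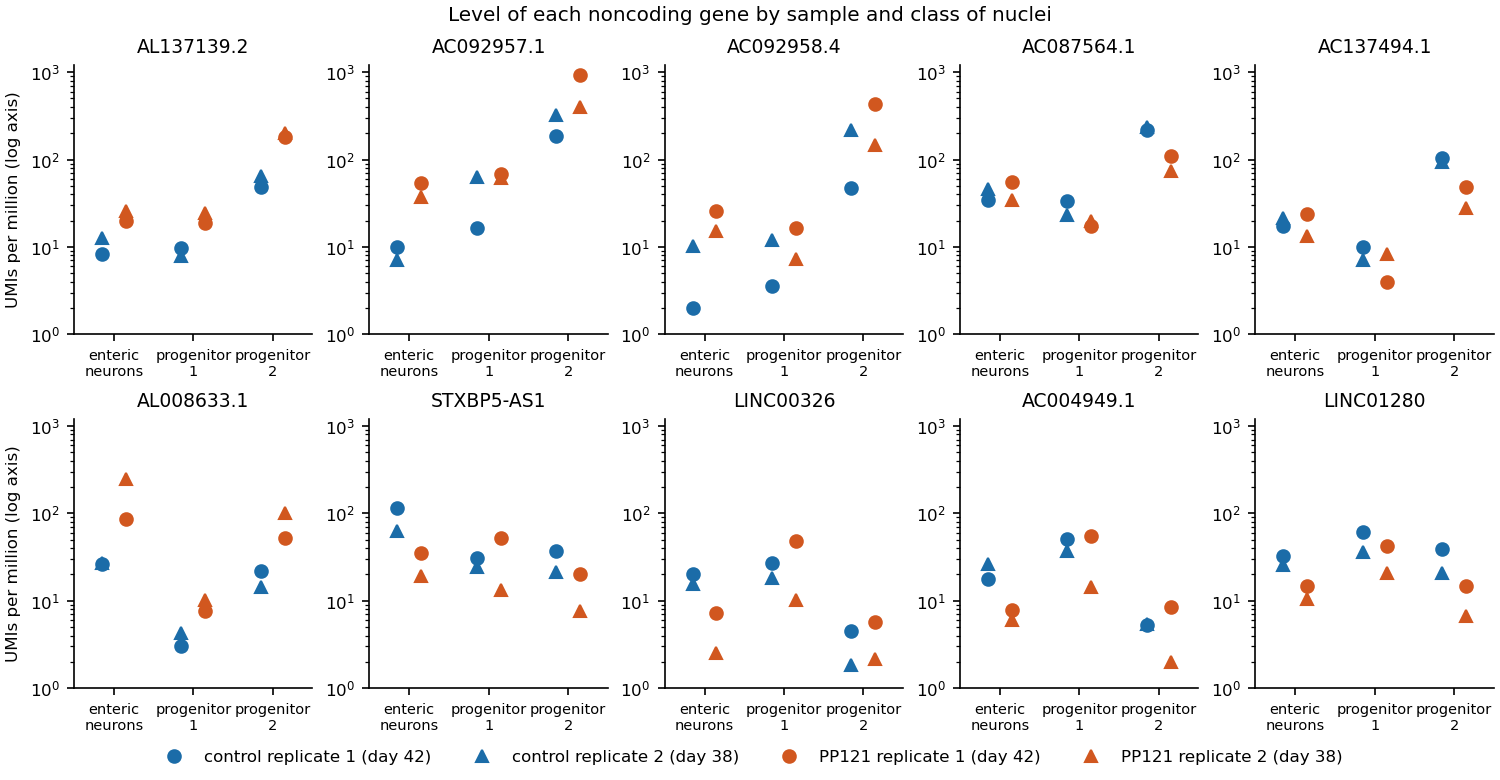
Level of each noncoding gene (CPM, log axis) in enteric neurons, progenitor 1 and progenitor 2, 1 point a sample, with control in blue, PP121 in orange, day 42 as circles and day 38 as triangles. The genes beside ZIC and SALL1 (AL137139.2 to AC137494.1) are highest in progenitor 2, where AC092957.1 reaches 919 CPM, and LINC00326 and AC004949.1 are lower there than in progenitor 1.

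Coding neighbours were compared in the same fit. ZIC1 (log2 fold change 1.01 ± 0.12), ZIC4 (1.45 ± 0.17), ZIC5 (0.68 ± 0.26), SALL1 (0.88 ± 0.16) and CLYBL (2.50 ± 0.13), which encodes a mitochondrial lyase, were each higher in progenitor 2. ZIC2, which follows ZIC5, was lower there, at -0.88 ± 0.18, and was added after its values were seen. NDUFA4 (-1.04 ± 0.11), RPL37A (-0.33 ± 0.10) and IGFBP2 (-0.57 ± 0.14) were lower in progenitor 2, as were AC004949.1 and LINC01280 near them. Other neighbours went against their noncoding gene. NXPH1 (1.68 ± 0.24), on the far side of AC004949.1, and SAMD5 (0.81 ± 0.20), on that of STXBP5-AS1, were higher in progenitor 2, and CYLD (-1.54 ± 0.11), near AC087564.1, was lower. EYA4 (-0.37 ± 0.39, adjusted p = 0.446), ADGB (0.29 ± 0.53), RPS12 (-0.12 ± 0.1) and HNRNPA1P48 (0.19 ± 0.30) did not pass, and STXBP5 was higher in progenitor 2 (0.57 ± 0.10), opposite to STXBP5-AS1.

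Between enteric neurons and the progenitor classes combined, 8 of the 10 genes passed, 2 higher and 6 lower in neurons, where 47.8% of 21787 genes passed (24.7% higher and 23.1% lower). The genes beside ZIC had the largest differences. AC092957.1 had 10.1, 7.12, 53.9 and 37.6 CPM in neurons against 133, 215, 519.8 and 290.3 CPM in progenitors (log2 fold change -3.54 ± 0.25, adjusted p = 9.58e-07). AC092958.4 had 2.01, 10.2, 26.1 and 15.2 CPM in neurons against 33.8, 132, 239 and 102 CPM in progenitors (-3.28 ± 0.17), and AL137139.2 differed by -2.13 ± 0.13. AC087564.1 (-1.16 ± 0.27) and AC137494.1 (-1.07 ± 0.26) were also lower in neurons. For AC087564.1 the neurons of the PP121 samples, at 55.4 and 34.5 CPM, were nearer to their progenitors, at 66.0 and 56.5 CPM, than those of the controls, at 34.6 and 45.9 against 161 and 146 CPM.

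AL008633.1 was higher in neurons than in progenitors, with 26.3, 27.0, 85.8 and 245 CPM against 16.1, 10.1, 31.2 and 72.4 CPM (log2 fold change 1.43 ± 0.15, adjusted p = 1.73e-05). STXBP5-AS1 was higher in neurons by 1.12 ± 0.22 (adjusted p = 0.00182). Its levels were 114, 62.3, 35.6 and 19.3 CPM in neurons and 35.4, 22.5, 35.6 and 9.45 CPM in progenitors, so that only PP121 replicate 1 showed no difference. LINC01280 passed narrowly (-0.36 ± 0.13, adjusted p = 0.0484) and lost the call without control replicate 1 (0.136), without PP121 replicate 1 (0.245), with DESeq2 (0.0586), with the replicate number as the block (0.0615) and with classes clustered over all samples together (0.158). LINC00326 (-0.12 ± 0.39, adjusted p = 0.828) and AC004949.1 (-0.35 ± 0.31, adjusted p = 0.385) did not pass. STXBP5 was also higher in neurons (0.78 ± 0.085), and SALL1 (-1.29 ± 0.15), ZIC1 (-0.58 ± 0.12), ZIC4 (-0.55 ± 0.14) and ZIC5 (-1.64 ± 0.22) were lower.

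**Figure D3:**
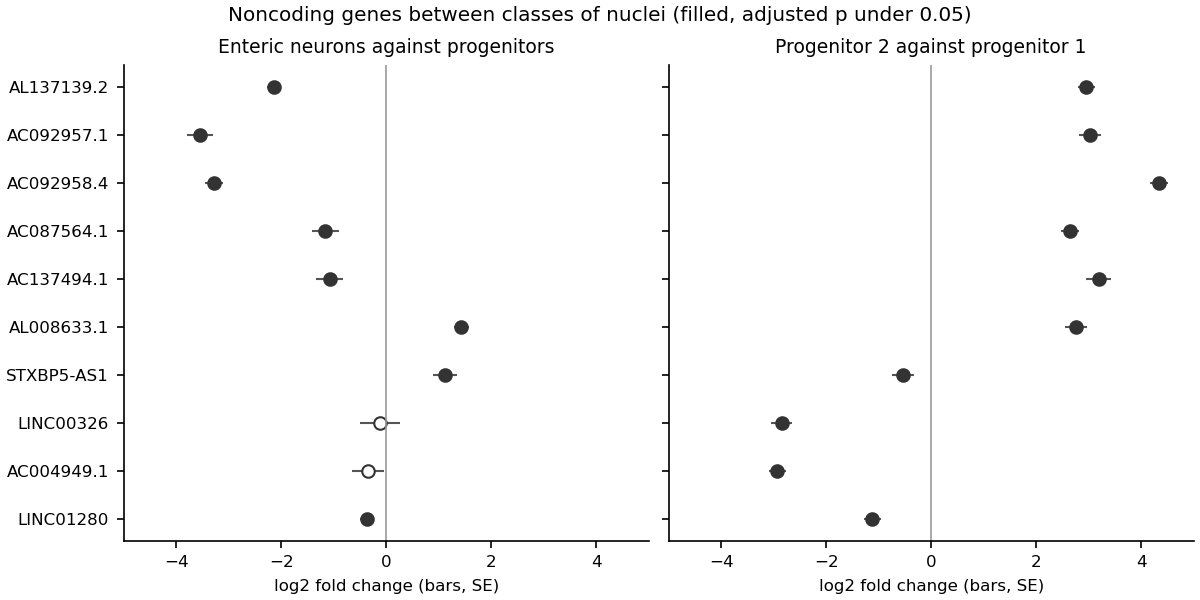
log2 fold change (points) with its SE (bars) of each noncoding gene between enteric neurons and progenitors and between progenitor 2 and progenitor 1, filled where the adjusted p is under 0.05. The genes beside ZIC and SALL1 are lower in neurons and higher in progenitor 2, and AC092958.4 has the largest difference between the progenitor classes, at 4.34.

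In the 568 nuclei of the unknown class the genes beside ZIC were also high. This class had the highest sum of motile cilia markers, 614 to 2567 CPM against 91.6 to 314 CPM in neurons and progenitors. AL137139.2 stood there at 355, 207, 408 and 287 CPM, above its level in progenitor 2 of the same sample in all 4. AC092957.1 had 240.4, 25.2, 428 and 336 CPM and AC092958.4 had 264, 66.7, 259 and 149.9 CPM, with the lowest value of each in control replicate 2, which held only 60 such nuclei. In mesenchymal nuclei AC092957.1 stood at 196, 66.0, 326 and 89.3 CPM and AL008633.1 at 67.3, 25.1, 111 and 168 CPM, where replicate 1 had only 40 control and 33 PP121 nuclei.

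Among enteric neurons, those annotated as NO were compared with those annotated as other. The authors gave the label other where their criteria for NO were not met, so it does not by itself mark another transmitter. Of the 10 genes, 3 were higher in NO neurons and none was lower, where 11.7% of 19026 genes passed (7.42% higher and 4.26% lower). Without adjustment 6 of the 10 had p under 0.05, as did 4771 of the 19026 genes. STXBP5-AS1 had 298, 163, 67.3 and 53.4 CPM in NO neurons and 70.2, 41.5, 28.6 and 16.8 CPM in other neurons. NO neurons were thus above other neurons in each sample, by 1.82 ± 0.12 on the log2 scale (adjusted p = 1.12e-06). AL008633.1 had 39.8, 59.4, 150.1 and 520.0 CPM in NO neurons and 23.1, 20.2, 75.8 and 232 CPM in others (1.16 ± 0.11). LINC00326 had 35.2, 30.0, 11.0 and 3.48 CPM against 16.8, 12.4, 7.42 and 2.54 CPM (1.01 ± 0.17, adjusted p = 0.0014). STXBP5 itself did not pass (0.24 ± 0.093, adjusted p = 0.123). AC087564.1 (0.77 ± 0.31), AC137494.1 (0.89 ± 0.32) and AC004949.1 (0.48 ± 0.21) missed the threshold and passed without PP121 replicate 2, which held 91 NO neurons (1.07, 1.13 and 0.59).

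The authors set the 6 transmitter identities from scores on imputed values, 1 nucleus can hold several, and their levels are given as a description. STXBP5-AS1 was highest in NO neurons in all 4 samples and next highest in catecholaminergic neurons, at 122, 96.8, 51.9 and 27.8 CPM. AL008633.1 was highest in NO neurons in control replicate 2 and PP121 replicate 1, in glutamatergic neurons in control replicate 1 (41.6 CPM) and in cholinergic neurons in PP121 replicate 2 (891 CPM). It was lowest in GABAergic neurons in every sample, at 13.5 to 57.2 CPM. AC087564.1 was lowest in GABAergic neurons in control replicates 1 and 2 and PP121 replicate 1, at 11.6, 22.4 and 16.1 CPM, and in cholinergic neurons in PP121 replicate 2, with 1 UMI in 93 nuclei.

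Progenitors in the annotated phases G2M and G1 were compared next. Of the 10 genes, 5 passed, where 27% of 17116 genes passed (14.1% higher and 12.9% lower). LINC00326 was higher in G2M (0.89 ± 0.21, adjusted p = 0.0034), with 8.10, 4.69, 17.6 and 3.67 CPM in G1 and 19.6, 11.6, 26.9 and 4.06 CPM in G2M. AC137494.1 (-1.10 ± 0.11), AC092958.4 (-0.90 ± 0.22), AC087564.1 (-0.74 ± 0.097) and STXBP5-AS1 (-0.54 ± 0.16) were lower. With the replicate number as the block, 2958 of all genes passed. Of the 10 genes 2 passed, AC087564.1 and AC137494.1, whereas AC092958.4 (adjusted p = 0.172), STXBP5-AS1 (0.0783) and LINC00326 (0.0654) did not. STXBP5-AS1 also lost its call without control replicate 1 (0.196). AC092957.1 (-0.76) and AL137139.2 (-0.51) passed without that sample, AL137139.2 (-0.55) also without PP121 replicate 1, and AL008633.1 (-0.82) without PP121 replicate 2, all lower in G2M. Progenitor 1 and progenitor 2 were summed here, and how their shares in each phase bear on these values was not tested.

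PP121 against control is the contrast that chose the genes, and its values are given by class. In enteric neurons 4 genes had both PP121 samples above both controls and 4 had both below, where 45.5% of 21243 genes did not overlap in either direction (22% above and 23.5% below). In progenitors 3 genes were above and 3 below, where 29.8% of genes did not overlap (14.8% above and 15% below). Over all annotated nuclei 3 were above and 4 below, where 34.8% did not (18.1% and 16.7%). In sums over a class, fewer nuclei that hold a transcript and less transcript per nucleus cannot be told apart.

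The genes beside ZIC were higher with PP121, though not alike on both days. AL137139.2 was the most even over the classes, with a log2 ratio of PP121 over control of the same day of 1.23 and 1.00 in neurons on days 42 and 38, of 0.97 and 1.64 in progenitor 1 and of 1.93 and 1.67 in progenitor 2. Within NO neurons, from few UMIs, it was lower with PP121 on both days, as given further below. AC092957.1 had log2 ratios of 2.42 and 2.40 in neurons, 2.05 and -0.034 in progenitor 1 and 2.32 and 0.28 in progenitor 2. In the progenitors, then, its difference lay mostly between the day 42 samples. AC092958.4 had 3.70 and 0.58 in neurons, 2.22 and -0.74 in progenitor 1 and 3.20 and -0.59 in progenitor 2, so that its sign turned between days in both progenitor classes. Its fitted log2 fold change in neurons was 1.87 ± 0.65; it was 3.44 without control replicate 2 and 1.03 without control replicate 1.

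Of the coding neighbours at these loci, ZIC1, ZIC4, ZIC5 and CLYBL had both PP121 samples above both controls in neurons and in progenitors, with log2 fold changes in neurons and progenitors of 0.83 ± 0.13 and 1.00 ± 0.24 for ZIC1, of 1.20 ± 0.29 and 0.85 ± 0.25 for ZIC4, of 1.78 ± 0.54 and 1.16 ± 0.38 for ZIC5 and of 0.70 ± 0.25 and 1.13 ± 0.23 for CLYBL. For ZIC2 the groups overlapped in neurons (0.26 ± 0.38) and did not in progenitors (0.65 ± 0.29). The genes beside SALL1 differed with PP121 in progenitor 2 and overlapped in neurons. In progenitor 2 both PP121 samples of AC087564.1 lay below both controls at the levels given above, and over all progenitors its fitted value was -1.34 ± 0.19. In neurons its log2 ratios were 0.68 and -0.41 on days 42 and 38. AC137494.1 had log2 ratios of -1.12 and -1.74 in progenitor 2 and 0.47 and -0.65 in neurons. SALL1 stood at 19.4, 17.9, 14.3 and 13.2 CPM in progenitors, with both PP121 samples lowest, and at 5.80, 6.58, 6.83 and 5.94 CPM in neurons, where the groups overlapped.

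AL008633.1 had the largest fitted difference in neurons, 2.68 ± 0.47. Its PP121 samples were above the controls in neurons and in both progenitor classes, with log2 ratios of 1.71 and 3.18 in neurons, 1.34 and 1.26 in progenitor 1 and 1.25 and 2.82 in progenitor 2. Without PP121 replicate 2, in whose neurons it reached 245 CPM, the fitted value was 1.70, and in progenitors it was 1.19 in place of 1.99 ± 0.39.

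Lower with PP121 in neurons were STXBP5-AS1, LINC00326, LINC01280 and AC004949.1. STXBP5-AS1 had log2 ratios of -1.68 and -1.69 in neurons and -0.88 and -1.46 in progenitor 2, but 0.77 and -0.87 in progenitor 1, where the groups overlapped. STXBP5, from the other strand, overlapped between groups in neurons, at 199.9, 163, 196 and 173 CPM. LINC00326 had -1.47 and -2.62 in neurons and 0.84 and -0.83 in progenitor 1, and its fitted value in neurons was -1.76 ± 0.40, or -2.76 without PP121 replicate 1. AC004949.1 had -1.15 and -2.13 in neurons and 0.15 and -1.35 in progenitor 1, so that for both the progenitor 1 ratio turned sign between the days. LINC01280 was lower on both days in all 3 classes, with log2 ratios of -1.16 and -1.29 in neurons, -0.53 and -0.78 in progenitor 1 and -1.41 and -1.65 in progenitor 2. Its fitted value in progenitors was -0.91 ± 0.36, and -0.55 without control replicate 1, -1.65 without PP121 replicate 1 and -0.45 without PP121 replicate 2. For AC004949.1 the fitted value in neurons was -1.60 ± 0.27, and -0.94 with classes clustered over all samples together. In that clustering, 8.39 and 14.2% of the annotated neurons of control replicates 1 and 2 fell outside the neuron class. In PP121 replicates 1 and 2 it was 4.19 and 5.74%. How this edge of the class bears on the PP121 values in neurons was not tested.

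**Figure D4:**
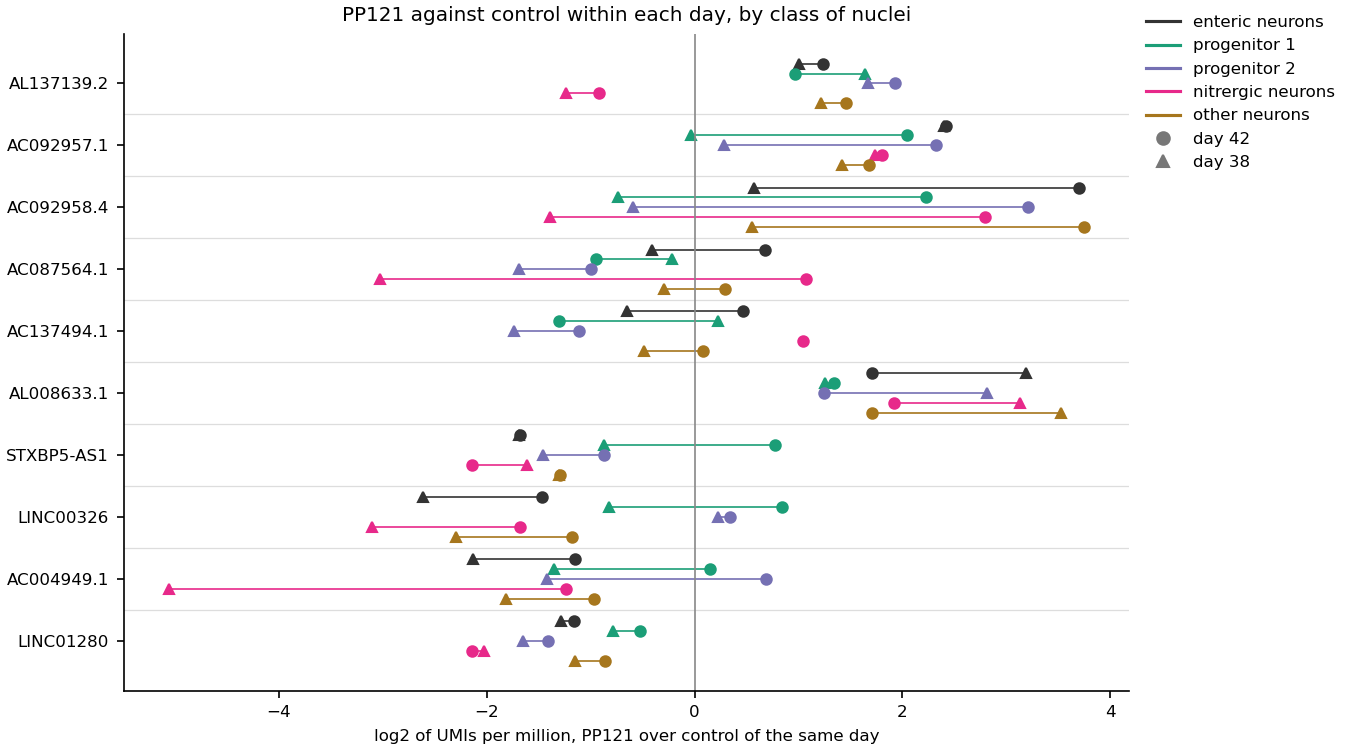
log2 ratio of PP121 over control of the same day (x axis) for each noncoding gene in enteric neurons, progenitor 1, progenitor 2, NO (nitrergic) neurons and other neurons, with day 42 as circles, day 38 as triangles and a line joining them (AC137494.1 had 0 UMIs in the NO neurons of PP121 replicate 2, so that point is missing). AL008633.1 is above 0 and LINC01280 below 0 in all 5 sets on both days, whereas AC092958.4 spans 0 in progenitor 1, progenitor 2 and NO neurons.

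In the PP121 samples a small set of neurons carried much of the level of AC092957.1. Some nuclei called enteric neurons are labelled neither NO nor other in the annotation, and only that label was used to set them apart. They numbered 16 and 16 in the controls and 143 and 61 with PP121, which is 0.695, 1.28, 7.04 and 6.25% of the neurons. They held 2, 1, 420 and 171 of its 191, 79, 907 and 329 UMIs in neurons. That is 1.05% and 1.27% of them in the controls, and 46.3% and 52.0% with PP121. Over neurons labelled NO or other its log2 fold change was 1.66, in place of 2.44, a comparison made after these values were seen. The nuclei with neither label had 1407, 2997, 1667 and 1795 CPM of the neuronal markers and 1511, 3190.5, 257 and 487 CPM of the cycling markers, the latter against 43.4 to 93.2 CPM in all enteric neurons. Their part in the PP121 values of AC092957.1 beyond this comparison was not tested. Of AC092958.4 they held 0, 14.2, 18.5 and 28.6% of the neuron UMIs. For AL137139.2 the shares were 1.26, 7.80, 24.7 and 12.6%, and for AC087564.1 they were 1.07, 1.18, 16.1 and 13.9%.

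How the transcripts spread over nuclei was compared after each nucleus was thinned to 2000 UMIs. AC092957.1 was found in 7.14% (95% interval 5.72 to 8.79), 13.4% (95% interval 11.0 to 16.2), 30.8% (95% interval 28.1 to 33.6) and 22.6% (95% interval 19.8 to 25.5) of progenitor 2 nuclei, and without thinning in 10.2, 17.1, 37.1 and 30.9%. In progenitor 1, thinned, it was found in 2.06, 5.14, 7.50 and 7.03%. The 2 PP121 samples thus had the larger share of progenitor 2 nuclei with this transcript. Within those nuclei it was uneven, since the 10 nuclei with most UMIs held 45.2, 41.1, 15.9 and 22.7% of its unthinned UMIs, and 1 nucleus reached 154, 116, 227 and 103 UMIs. The intervals are exact Clopper-Pearson intervals and cover counting error only.

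AL008633.1 was found in 3.40% (95% interval 2.70 to 4.23), 3.29% (95% interval 2.37 to 4.43), 8.40% (95% interval 7.23 to 9.69) and 13.4% (95% interval 11.4 to 15.8) of thinned neurons and in 7.61, 6.80, 15.9 and 22.3% of unthinned ones. In progenitor 1, where it was lowest, the thinned shares were 0.344, 0.663, 1.28 and 2.01%. Neurons of PP121 replicate 2 held up to 104 UMIs each. STXBP5-AS1 was found in 14.4, 6.66, 5.19 and 2.87% of thinned and 27.2, 15.7, 12.3 and 7.68% of unthinned neurons, against 5.40, 3.40, 3.55 and 0.470% of thinned progenitor 2 nuclei. AC087564.1 was found in more progenitor 2 nuclei than AC092957.1 in the controls and in fewer with PP121, at 26.7, 25.6, 14.4 and 12.5% thinned and 46.2, 44.5, 27.6 and 24.1% unthinned, against 6.53, 2.99, 3.32 and 3.82% of thinned progenitor 1 nuclei. AC092958.4 was concentrated in few neurons, with 78.9, 57.5, 44.2 and 72.2% of its unthinned neuron UMIs in 10 nuclei.

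Correlations across nuclei were taken within each sample, on the log of UMIs per 10000, and averaged over the 4 samples. They are descriptions, since nuclei of 1 sample share a library and depth. AC087564.1 and AC137494.1 had the highest, at 0.678 (0.626 to 0.739) in neurons and 0.595 (0.536 to 0.654) in progenitors, with the lowest and highest sample in brackets. The genes beside ZIC went together in progenitors, AC092957.1 with AC092958.4 at 0.567 (0.358 to 0.666), AL137139.2 with AC092958.4 at 0.496 (0.408 to 0.578) and AL137139.2 with AC092957.1 at 0.440 (0.327 to 0.544). In neurons the same pairs were at 0.186, 0.120 and 0.124. LINC00326 and AC004949.1, which lie on different chromosomes, were at 0.218 (0.146 to 0.280) in neurons and 0.307 (0.239 to 0.403) in progenitors.

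**Figure D5:**
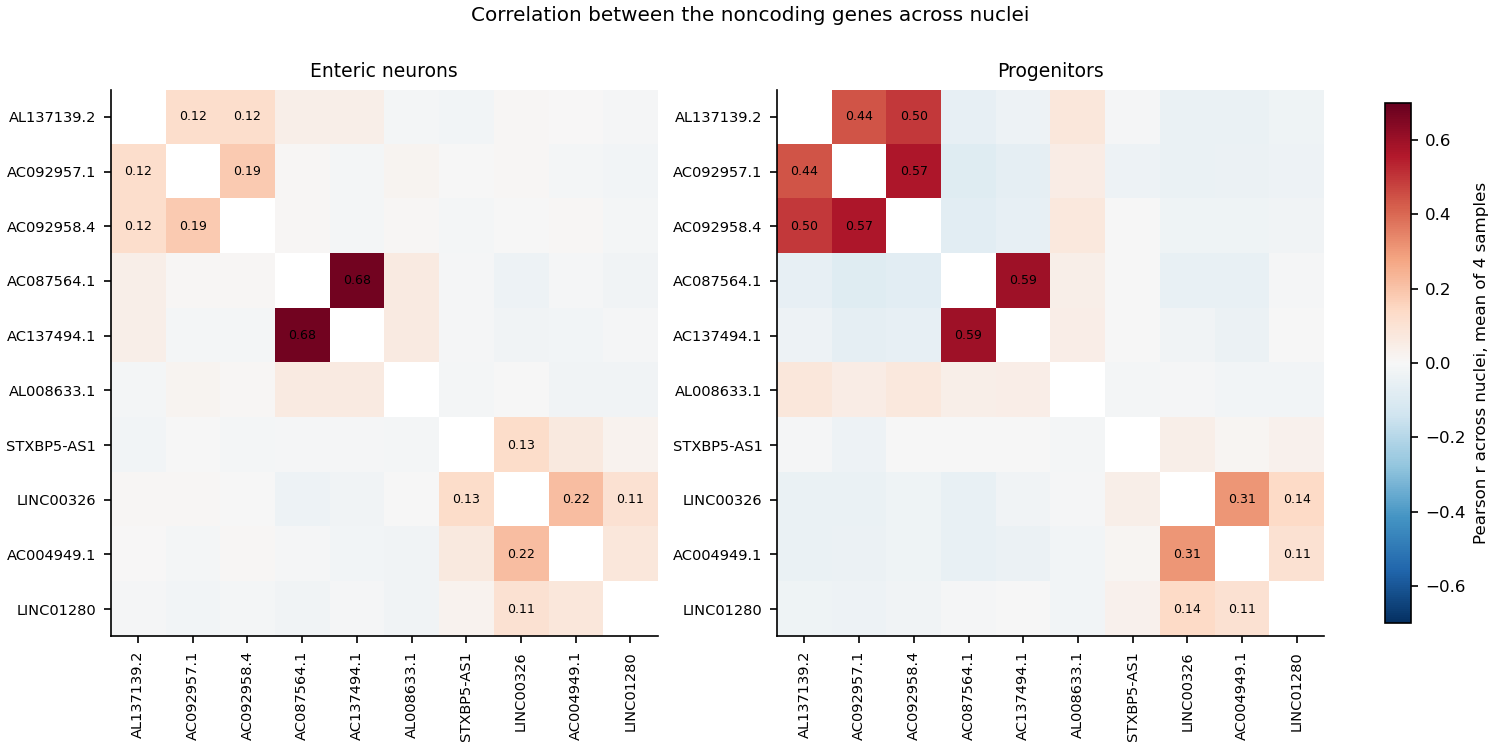
Pearson r across nuclei between the noncoding genes (colour, mean of the 4 samples, with values of at least 0.1 in size written) in enteric neurons and in progenitors, both progenitor classes pooled. The pair beside SALL1 stands out in both, at 0.678 and 0.595, and the 3 genes beside ZIC stand together in progenitors.

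Coding genes were compared in the same way. Among 13283 genes compared in neurons and 12958 in progenitors, the coding gene most like AL137139.2 was its neighbour CLYBL in both, at 0.222 (0.159 to 0.340) and 0.451 (0.321 to 0.565). Its other neighbour ZIC5 was at 0.0833 (0.0463 to 0.107) in progenitors, and ZIC2 at 0.0417 (-0.0144 to 0.0756). AC092958.4 with ZIC1 was at 0.309 (0.281 to 0.326) in progenitors and 0.141 (0.109 to 0.162) in neurons. AC092957.1 with ZIC4 was at 0.185 (0.110 to 0.231) in progenitors and 0.0288 (0.0103 to 0.0600) in neurons. EPHA3, an ephrin receptor, was among the 3 coding genes most like each of the genes beside ZIC in progenitors, at 0.421 (0.316 to 0.519) with AC092957.1, 0.372 (0.292 to 0.446) with AL137139.2 and 0.364 (0.274 to 0.429) with AC092958.4. It was higher in progenitor 2 than in progenitor 1 by 2.23 ± 0.14 on the log2 scale, as those genes were.

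AC087564.1 was most like PLXNA2, a semaphorin receptor, at 0.337 (0.259 to 0.396), and ROBO2, a receptor of axon guidance, at 0.333 (0.226 to 0.440), in progenitors, and PAX3, a neural crest transcription factor, at 0.227 (0.121 to 0.314), in neurons. With SALL1 it was at 0.144 (0.0854 to 0.206) in neurons. STXBP5-AS1 was most like DSCAM, a neuronal adhesion molecule, at 0.266 (0.140 to 0.396), in neurons, and with STXBP5 it was at -0.0241 (-0.0749 to 0.0146). DSCAM was also higher in NO neurons than in others (1.89 ± 0.11). AL008633.1 was most like TMEM132D at 0.296 (0.129 to 0.600), with a wide range between samples. For LINC00326, LINC01280 and AC004949.1 no coding gene reached a mean of 0.2. The coding gene most like LINC01280 in neurons was its neighbour RPL37A, at 0.171 (0.128 to 0.194), which was at 0.119 (0.0945 to 0.160) in progenitors. Values under 0.2 in sparse counts, here and for the coding genes above, are not read as a relation.

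Between day 42 and day 38, in a fit with treatment as a covariate and 1 residual degree of freedom, 5 of the 10 genes passed in neurons, where 9.49% of 21243 genes passed (3.68% higher and 5.81% lower). STXBP5-AS1 (0.82 ± 0.11), LINC00326 (0.69 ± 0.21) and AC092957.1 (0.45 ± 0.14) were higher on day 42, and AL008633.1 (-0.93 ± 0.18) and AL137139.2 (-0.53 ± 0.16) were lower. In progenitors 3 passed, LINC00326 (1.28 ± 0.30), STXBP5-AS1 (1.13 ± 0.23) and LINC01280 (0.90 ± 0.21), all higher on day 42, where 2.99% of 20260 genes passed (1.41% higher and 1.58% lower). DESeq2 called 1 of the 10 in neurons, STXBP5-AS1, and 0 in progenitors (2 at an unadjusted p under 0.05). Without the treatment term no gene passed in either, with 1574 and 2248 of all genes at an unadjusted p under 0.05. Leaving out single samples, in a fit without that term, left 0 to 1 of the 10 in neurons and 0 to 5 in progenitors, 0 without control replicate 1 or PP121 replicate 2 in neurons and 0 without PP121 replicate 2 in progenitors. 

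The naming classes give a background for the direction between progenitors. Of 3381 genes with clone names tested between progenitor 2 and progenitor 1, 1328 were higher and 412 lower, with a median log2 fold change of 0.42. Of 511 LINC genes, 243 were higher and 53 lower. A higher level in progenitor 2, as in the genes beside ZIC and SALL1, was thus common among noncoding genes, whereas a lower one, as in LINC00326 and AC004949.1, was less so.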

How the data were processed

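UMI counts per gene and nucleus, deposited by the authors, were used with their annotation of class, transmitter identity, phase and day. The annotation by the authors also gives the percent of mitochondrial counts per nucleus, for which they state a limit of 10%; no result uses it. The submitters' processing notes name Cell Ranger, Seurat 4.0.4 and GRCh38, and the methods name kallisto and bustools; nuclei without an annotated class, which include those the authors filtered, were left out. The authors hashed the samples, and no doublet caller was run here. At most 8 barcodes were shared by a pair of samples. Groups came from the labels, since a sample column of the annotation disagrees with them for the controls. The 10 genes and all lists were chosen with earlier results of these data known. Coding genes were named by rule: the 3 with the highest mean correlation, positive in all 4 samples, for each gene and class, and the nearest coding neighbours. ZIC2 and the comparison over neurons labelled NO or other were added after values were seen.

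Counts were summed per sample and class and tested with edgeR 4.0.16 (quasi-likelihood, TMM, filterByExpr, two-sided, R 4.3.3) over all genes, with Benjamini-Hochberg adjustment at 0.05. The classes share a library, so the sample was a block. The day was fitted with treatment, with 1 residual degree of freedom. Alternatives were DESeq2 1.42.0, no filter, at least 10 counts in every sum, the replicate number as a block, joint Leiden clusters (scanpy 1.11.5), the day without treatment, and leaving out each sample. Replicate numbers mark the annotated day. Deviations of same-numbered samples correlated at 0.610 over all nuclei, 0.477 in neurons and 0.325 in progenitors. Since those samples share the annotated day, this does not tell whether they share a differentiation. On simulated data for neurons against progenitors, over 21787 genes, 100% of 2-fold changes were recovered, and for the day in neurons, over 21243 genes, 82%. The simulated samples differed only in library size and a single fixed dispersion, and changes were placed only in genes with high expected counts. These shares therefore do not give the power for sparse genes, such as LINC00326 with 22 UMIs in neurons of PP121 replicate 2. Thinning to 2000 UMIs left out 2 to 23 nuclei of a neuron or progenitor class and sample.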

Additional observations from a re-analysis of the deposited data

Results flagged for a closer look

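In the PP121 contrast, AL137139.2 moved in opposite directions in NO neurons and in other neurons on both days. The log2 ratios of PP121 over control on days 42 and 38 were -0.92 and -1.24 in NO neurons, from 50, 27, 22 and 5 UMIs in the samples, and 1.45 and 1.21 in other neurons. Averaged over the days, the log2 ratio in NO neurons minus that in other neurons was -2.41, and this difference was not tested.

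LINC00326 had log2 ratios of -1.47 and -2.62 in enteric neurons and 0.34 and 0.22 in progenitor 2, where it was low, with 40, 10, 45 and 14 UMIs in the samples. Averaged over the days, the log2 ratio in neurons minus that in progenitor 2 was -2.33, and this difference was not tested either.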

How the results depend on the processing

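Between the progenitor classes and between neurons and progenitors, the calls of the 10 genes were kept under every alternative run, apart from STXBP5-AS1 and LINC01280 as given above. With the replicate number as the block, which pairs the samples of 1 day, the G2M comparison called 2958 genes and 2 of the 10, and the block changed no other call of the 10 beyond those given above. DESeq2 called 2562 genes and 3 of the 10 there. Without a filter on low counts 3040 genes and 5 of the 10 passed in NO neurons. DESeq2 called 390 genes and 1 of the 10 for the day in neurons, and 152 and 0 in progenitors, where 1265 genes and 2 of the 10 had an unadjusted p under 0.05. Without treatment in the day fit, 0 genes and 0 of the 10 passed in either. An unadjusted p under 0.05 was held by 1574 genes and 0 of the 10 in neurons, and by 2248 and 2 in progenitors. Joint clusters called 1430 genes and 2 of the 10 for the day in neurons. After thinning, 35 of the 60 coding genes named were named again. None of these causes was tested.

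Signs of genes not called turned for LINC01280 in NO neurons (-0.063 with DESeq2 and -0.0095 without a filter), for the day in neurons for AC092958.4 (0.095 without treatment) and AC004949.1 (0.013 with joint clusters), and for the day in progenitors for AC092957.1 (0.26 without treatment, 0.081 with joint clusters) and AC092958.4 (0.11 without treatment).

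With each sample left out in turn, the genes called ranged from 1242 to 2255 in NO neurons (of the 10 genes, 3 to 6), from 2 to 271 for the day in neurons (0 to 1) and from 2 to 1031 for the day in progenitors (0 to 5). The log2 fold changes that turned sign ranged as follows. In neurons against progenitors these were LINC00326 (-0.58 to 0.55) and AC004949.1 (-0.68 to 0.20). In NO against other neurons these were AL137139.2 (-0.89 to 0.078), AC092957.1 (-0.049 to 0.21) and LINC01280 (-0.29 to 0.24). In G2M against G1 these were LINC01280 (-0.22 to 0.25) and AC004949.1 (-0.078 to 0.31). For the day in neurons, where the treatment term had to be dropped, these were AL008633.1 (-2.46 to 1.02), AL137139.2 (-1.26 to 0.10), AC092957.1 (-1.22 to 2.13), AC092958.4 (-2.73 to 1.00), AC087564.1 (-0.29 to 0.42), AC137494.1 (-0.089 to 0.52), STXBP5-AS1 (-0.23 to 1.86), LINC00326 (-0.35 to 2.36), LINC01280 (-0.35 to 1.08) and AC004949.1 (-1.11 to 0.98). For the day in progenitors these were AL008633.1 (-1.71 to 1.10), AL137139.2 (-1.47 to 0.70), AC092957.1 (-1.05 to 0.94), AC092958.4 (-1.91 to 0.93), AC087564.1 (-0.72 to 0.90) and AC137494.1 (-0.64 to 1.12). In the PP121 values, 24 alternative values moved by more than the spread between replicates and 246 did not. Depth limits LINC00326 and AC004949.1 in progenitor 2, where they stood at 1.85 to 8.45 CPM.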
